A study of Homo sapiens with 4 samples.

Results

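Cadherins and protocadherins, the calcium-dependent adhesion molecules of cell surfaces, were followed through chemotherapy in BT-16 and CHLA-266 cells. All rows of the count table with a symbol of CDH and a number, or with a symbol that starts with PCDH, were taken, which gave 86 of 18449 gene symbols. They comprised 18 classical cadherins (5 of type I and 13 of type II), 5 other cadherins, 10 non-clustered protocadherins, and 53 clustered protocadherins (15 *PCDHA*, 16 *PCDHB*, and 22 *PCDHG*). BT-16 and CHLA-266 are established lines of the MYC subtype of atypical teratoid/rhabdoid tumor (AT/RT), a malignant brain tumor of infancy. Treated cells received 1 µM doxorubicin (doxo), 5 µM etoposide (eto), and 1 µM vincristine (vin) on 3 consecutive days, and the methods state that most cells died and that the cells analyzed were those that grew again. Untreated cells of the same line were the controls, and all 4 cultures were kept in the same medium with serum. Each line gave 1 library per condition. The 2 libraries of a condition are therefore 2 different lines, and *p* values measure the spread between them. Below, counts are given untreated first and treated second, for BT-16 and then for CHLA-266. Time in culture and survival of the drugs cannot be told apart in this design.

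Classical cadherins bind the same cadherin on the neighboring cell and are tied to actin by catenins, with E-cadherin typical of epithelia and N-cadherin typical of neural and mesenchymal cells. Clustered protocadherins are encoded by tandem arrays on chromosome 5, in which each variable exon has its own promoter. Neurons use a combination of them as a surface identity, and their promoters are held by the insulator protein CTCF and the cohesin ring and are silenced by DNA methylation. Each *PCDHA* and *PCDHG* variable exon is spliced to 3′ constant exons that the whole cluster shares, whereas *PCDHB* genes consist of a single exon.

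The libraries held between 49849257 and 75087193 counts, and the treated library was the smaller one in both lines. Of the 86 members, 84 had counts in at least 1 library and were tested, while *PCDHA1* and *PCDH20* were at 0 in every library. In the GENCODE annotation, 0.125% of the exon bases of *PCDHA1* and 8.74% of those of *PCDH20* belong to no other gene. More members exceeded 3 counts once treated (75 and then 84 in BT-16, 69 and then 83 in CHLA-266). Olfactory receptor genes, which these cells have no known use for, changed in the same way: of 381 such genes, 56 and then 253 exceeded 3 counts in BT-16, and 48 and then 187 did in CHLA-266. Their 95th percentile is given below as a reference for low levels. *SMARCB1*, the gene whose protein is lost in AT/RT, was counted in all libraries (827 to 1394 counts), so that its RNA was not absent. *MYC* was called lower and the other 2 AT/RT-MYC markers passed in neither direction. *VIM*, which these cells express strongly, had 73439 to 120804 counts.

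Before the values, short stretches of promoters of the clustered genes show what the arrays have in common. RefSeq promoter windows (GRCh38.p14, 250 bases before to 50 after the start) were at hand for 67 of the 86 members, among them 47 clustered protocadherins. The core CGCT, known from the conserved element of these promoters, was searched on the strand of the gene from 110 bases before to 10 after the start. It was found in 45 of the 47 (95.7%), against 32.8% of all 35116 promoter windows. It occurred in 12 of 13 *PCDHA*, 14 of 14 *PCDHB*, and 19 of 20 *PCDHG* windows, at a median of 58 bases before the start. By class, 4 of 10 classical and 2 of 8 non-clustered members had it. The search range was chosen after the sequences were seen. The 30 bases around the core are shown for 3 to 5 members of each cluster, all on the plus strand. The core is in capitals, and members called higher after treatment are set beside members not called.
PCDHA4, chr5:140806981-140807010: gagccacatgatgtCGCTctttaccacaaa
PCDHA8, chr5:140841132-140841161: aagccacatgatgtCGCTgtctaccaagaa
PCDHA12, chr5:140875246-140875275: cagtcacatgatgtCGCTctacactcagaa
PCDHB5, chr5:141135181-141135210: aggacgcctggtggCGCTgcaggctaagag
PCDHB8, chr5:141177779-141177808: aggacccgtggtggCGCTgcaggataagaa
PCDHB10, chr5:141192301-141192330: aggccacacggtggCGCTgcaggctaaaga
PCDHB14, chr5:141223265-141223294: gagacacatggtggCGCTacaggataagac
PCDHB15, chr5:141245316-141245345: acaacgcatggtggCGCTgcaggctaaggc
PCDHGA1, chr5:141330405-141330434: aggactgtgggcgcCGCTgttcactaatct
PCDHGA4, chr5:141354962-141354991: aagactctgggtgtCGCTgttcaccaatca
PCDHGA7, chr5:141382651-141382680: aggactcacagcgcCGCTgttcaccaacca
PCDHGA8, chr5:141392570-141392599: aggactgtaagcgcCGCTgttcacctactg
PCDHGA10, chr5:141412933-141412962: aggactctgagcgcCGCTgttcacctacta

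Each cluster had its own letters around the core. The 10 letters with the core that most members shared were TGATGTCGCT in *PCDHA* (8 of 13 windows), GGTGGCGCTG in *PCDHB* (12 of 14), and GCGCCGCTGT in *PCDHG* (9 of 20). On either strand they occurred in 0.0342%, 0.276%, and 0.131% of all promoter windows, and none of the 3 was found in another cluster. They were picked from these promoters, so that their frequency there is a description. Members called higher after treatment and members not called carried the same letters. Of the 29 members with the letters of their cluster, 22 were called higher and *PCDHA1* was at 0 in every library. The other 6, among them *PCDHB5* and *PCDHA12*, did not pass the test, which does not show that they were unchanged. In *PCDHA12* both treated libraries lay above both untreated ones, whereas the conditions overlapped in *PCDHB5*.

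To see which adhesion molecules differed in the cells that grew again, treated and untreated libraries were compared over both lines. Of the 84 members tested, 56 were higher after treatment, 2 were lower (*CDH24* and *CDH4*), and 26 did not pass the test (edgeR quasi-likelihood test without the cell line in the model, Benjamini-Hochberg adjusted *p* value under 0.05 over 18066 genes). Over all genes, 16.1% were called higher and 19.1% lower. In bulk RNA, a change in the number of cells that express a gene and a change in RNA per cell cannot be told apart. In 76 members both treated libraries lay above both untreated libraries and in 2 they lay below, against 40.2% and 32.3% of all genes. The median log2 fold change of the members was 1.92, against 0.24 over all genes. The latter rose to 0.59 with upper-quartile normalization, under which 24.1% of all genes were called higher and 10.5% lower, so that values are best read against it. A model with the cell line as a block called 60 higher and 2 lower (17.9% and 23.7% of all genes).

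The classes differed in what rose. Among clustered protocadherins, 43 of 52 tested members rose, with a median log2 fold change of 1.67 and a median of 211 or more counts in every library. Among classical cadherins, 8 of 18 rose and 2 fell, and the risers were rare transcripts. Of the 9 non-clustered protocadherins tested, 4 rose, and of the 5 other cadherins, 1 rose. The summed level of each class, as CPM (counts scaled to the library size after TMM) per kilobase of exon, is given next. Clustered protocadherins went from 102 to 164 in BT-16 and from 76.7 to 237 in CHLA-266. Non-clustered protocadherins went from 34.4 to 56.7 and from 24.4 to 61.5. The scarce other cadherins went from 0.283 to 1.65 and from 0.181 to 1.33, although 1 of the 5 was called. Classical cadherins instead went from 72.0 to 45.6 in BT-16 and from 42.0 to 44.5 in CHLA-266, with overlapping conditions. No permutation test of these sums was made, because 2 libraries per condition are too few for it to reach the threshold.

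**Figure D1:**
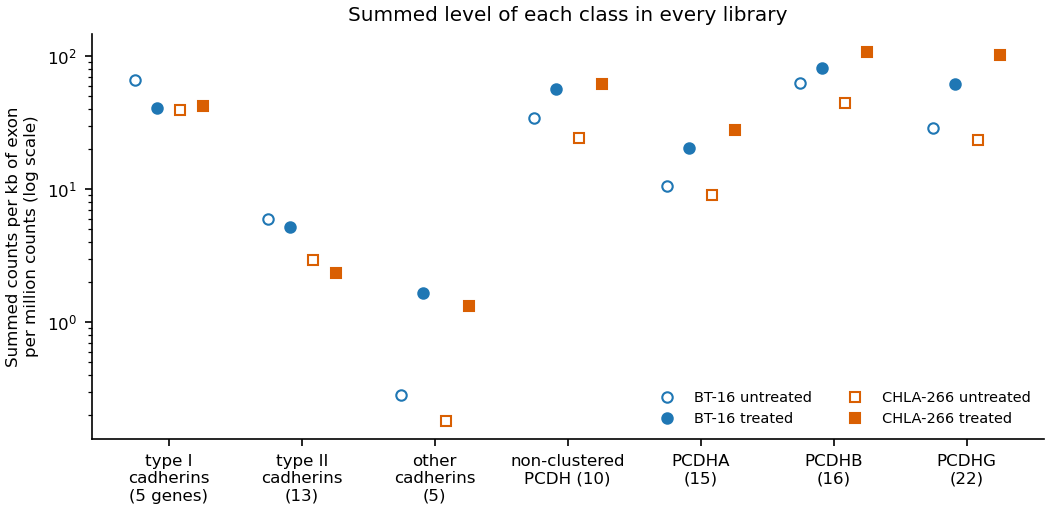
Summed level of each class (CPM per kilobase of exon, logarithmic axis) in the 4 libraries, with open symbols for untreated and filled symbols for treated cells, circles for BT-16 and squares for CHLA-266. In all 3 protocadherin clusters both treated libraries lie above both untreated ones (for *PCDHG* 62.2 and 102 against 28.7 and 23.5), whereas the conditions overlap in type I and type II cadherins.

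*CDH2*, which encodes N-cadherin, supplied most of the classical cadherin RNA in every library, and 3 other type I genes rose from low counts. *CDH2* (chromosome 18, 27932879 to 28177946, minus strand) was counted 35064 and 17441 times in BT-16, then 17137 and 16677 times in CHLA-266. Untreated BT-16 stood above the other 3 libraries, and the conditions overlapped. *CDH2* made up 82.2% and 77.2% of the summed classical level in untreated and 77.0% and 84.1% in treated cells of BT-16 and CHLA-266. Its log2 fold change of -0.34 ± 0.26 (SE) did not pass the test (adjusted *p* = 0.328, edgeR) and turned to 0.015 with upper-quartile normalization and to 0.16 without untreated BT-16. Without untreated CHLA-266 it was -0.71 (adjusted *p* = 0.0464, edgeR).

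*CDH1*, which encodes E-cadherin, the adhesion molecule of epithelia (chromosome 16, 68737292 to 68835537, plus strand), was counted 30 and 132 times in BT-16, then 6 and 94 times in CHLA-266. Both treated libraries lay above both untreated ones, at low counts throughout. The log2 fold change was 2.93 ± 0.84 (SE, adjusted *p* = 0.0275, edgeR), and the call was lost without untreated CHLA-266 (2.23, adjusted *p* = 0.0660). *CDH3*, the neighboring gene, which encodes P-cadherin, had 9 and 129, then 5 and 86 counts (log2 fold change 4.17 ± 0.80, adjusted *p* = 0.00523, edgeR). The conditions did not overlap, and *CDH3* stayed past the threshold with each library left out. *CDH15*, the M-cadherin of muscle, had 18 and 46, then 11 and 101 counts (2.62, adjusted *p* = 0.0453, edgeR). Its call was lost with the block (adjusted *p* = 0.0781, edgeR) and without untreated BT-16, untreated CHLA-266, or treated CHLA-266 (adjusted *p* = 0.0761, 0.121, and 0.401). Summed epithelial markers (*EPCAM*, *KRT8*, *KRT18*, *KRT19*, *CLDN3*, *CLDN4*, and *CLDN7*) went from 352 to 870 and from 170 to 358 CPM alongside. Of the 7, 3 were called higher (*KRT18*, *CLDN3*, and *CLDN4*), against 16.1% of all genes, and none was at 0 in any library. Most of the sum was *KRT8*, with 19569 and 42198, then 7895 and 14514 counts. It did not pass without the block and passed with it (adjusted *p* = 0.0567, and 5.67e-08 with the block, edgeR). *EPCAM* and *KRT19* were not called, nor was *CLDN7*, with 15 and 27, then 39 and 8 counts. The part of these markers in the *CDH1* and *CDH3* results was not tested. After treatment *CDH1* reached a level of 0.376 in BT-16 and 0.298 in CHLA-266, compared to 35.2 and 37.4 for *CDH2* (levels as CPM per kilobase of exon, that is, counts scaled to the library size and gene length).

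*CDH4*, the R-cadherin of retina and brain, was the second most abundant classical cadherin before treatment and fell. Its counts were 3441 and 1926 in BT-16, then 3038 and 1473 in CHLA-266. Both treated libraries lay below both untreated ones, and the log2 fold change was -0.69 ± 0.17 (SE, adjusted *p* = 0.0162, edgeR). The call depended on the scaling and on single libraries, since the log2 fold change was -0.34 with upper-quartile normalization (adjusted *p* = 0.163) and the adjusted *p* value was 0.0655, 0.0656, and 0.0530 without untreated BT-16, untreated CHLA-266, and treated CHLA-266 (edgeR).

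**Figure D2:**
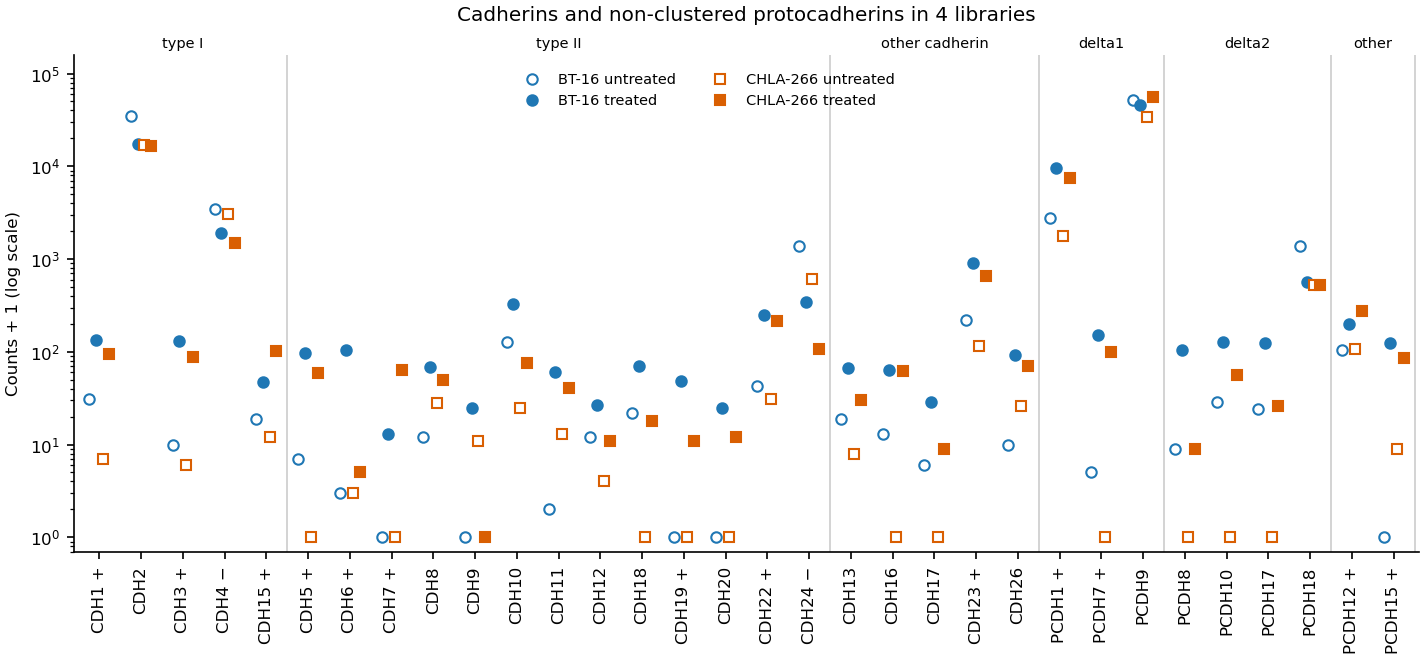
Counts plus 1 (logarithmic axis) of the cadherins and non-clustered protocadherins tested, in the 4 libraries, grouped by type (delta1, delta2, and other refer to non-clustered protocadherins). A plus sign marks genes that were higher and a minus sign genes that were lower after treatment in edgeR; *CDH2* and *PCDH9* have the most counts in every library, whereas most genes marked with a plus have 42 or fewer counts before treatment (except *CDH23*, *PCDH1*, and *PCDH12*).

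Among the 13 type II cadherins, *CDH24* was the most abundant in untreated cells and fell, while 5 scarce members rose. *CDH24*, whose protein binds catenins, was counted 1364 and 343 times in BT-16, then 607 and 107 times in CHLA-266. Both treated libraries were below both untreated ones. The log2 fold change was -1.89 ± 0.52 (SE, adjusted *p* = 0.0230, edgeR) and -1.99 in the model with the block. The call was lost without untreated BT-16 (-1.30, adjusted *p* = 0.109, edgeR).

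*CDH22*, a cadherin of the brain, had 42 and 246 counts in BT-16, then 30 and 215 in CHLA-266. The increase was of like size in both lines (log2 fold change 2.93 ± 0.51, adjusted *p* = 0.00329, edgeR). *CDH5*, which encodes the VE-cadherin of endothelial junctions, had 6 and 95, then 0 and 58 counts (4.89 ± 1.29, adjusted *p* = 0.0196, edgeR). Summed endothelial markers (*VWF*, *FLT1*, *CD93*, *CLDN5*, and *PECAM1*) went from 2.12 to 10.8 and from 1.23 to 7.66 CPM alongside. Of the 5, 2 were called higher, against 16.1% of all genes. *CD93* was at 0 in untreated CHLA-266, and *CLDN5* had 75, 48, 24, and 30 counts. The part of these markers in the *CDH5* result was not tested.

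*CDH7* and *CDH19*, the latter known from Schwann cell precursors, were at 0 in both untreated libraries. *CDH7* had 12 counts in treated BT-16 and 62 in treated CHLA-266, and *CDH19* had 48 and 10. Set against 3 counts in each untreated library, the mean of the 2 treated libraries was at least 15.2-fold higher for *CDH7* and 11.1-fold for *CDH19*. The adjusted *p* values were 0.0216 and 0.0339 (edgeR). Most of each mean came from 1 library, so that these bounds do not hold for each line. The *CDH19* call was lost with the block (adjusted *p* = 0.0544), without untreated BT-16 (0.0703), without untreated CHLA-266 (0.0686), and without treated BT-16 (0.256), and the *CDH7* call without treated CHLA-266 (adjusted *p* = 0.278, edgeR). *SOX10*, a marker of Schwann and melanocytic cells, had 28 and 159, then 45 and 130 counts and was called higher (adjusted *p* = 0.0232, edgeR). Its part in the *CDH19* result was not tested. *CDH6*, the K-cadherin of kidney, had 2 counts in each untreated library, 103 in treated BT-16, and 4 in treated CHLA-266, so that a single library held nearly all of its counts. The pooled ratio was 31.8 (exact 95% counting interval 12.1 to 119), and the call (adjusted *p* = 0.0467, edgeR) was lost with the block (0.123) and without untreated BT-16 (0.109), untreated CHLA-266 (0.107), or treated BT-16 (0.826). Counting intervals cover counting error only, and they are too narrow here because low counts were mostly even (odd counts made up 20.5% to 34.2% of counts from 1 to 20). *CDH9* had 24 counts in treated BT-16, 10 in untreated CHLA-266, and 0 in the other 2 libraries, which were of opposite condition in the 2 lines. The other type II genes (*CDH8*, *CDH11*, *CDH12*, *CDH18*, and *CDH20*) had 0 to 27 counts in untreated and 10 to 69 in treated libraries and did not pass (adjusted *p* = 0.0641 to 0.438, edgeR). Of 3 fibroblast markers, 1 was called higher, against 16.1% of all genes. Their sum went from 7.42 to 14.8 and from 3.02 to 6.02 CPM. *LUM* was at 0 in both CHLA-266 libraries and *COL3A1* at 0 in both untreated ones.

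Of the 5 other cadherins, *CDH23* alone passed the test. Its protein forms the tip link of inner ear hair cells together with that of *PCDH15*, and both genes rose. *CDH23* had 217 and 913 counts in BT-16, then 115 and 662 in CHLA-266 (log2 fold change 2.51 ± 0.36, adjusted *p* = 0.00131, edgeR). Of its exon bases, 3505 lie opposite to those of *C10orf105*, and the strand setting of the counting is not given in the sources used here. *PCDH15* was counted 0 and 122 times in BT-16, then 8 and 84 times in CHLA-266 (4.83 ± 1.25, adjusted *p* = 0.0180, edgeR). *CDH16*, a kidney cadherin, had 12 and 62, then 0 and 61 counts (adjusted *p* = 0.0687, edgeR, and 0.0302 with the block), and *CDH26* had 9 and 91, then 25 and 69 (adjusted *p* = 0.0548). The remaining *CDH13* and *CDH17* had 5 to 18 and 0 to 7 counts in the untreated libraries of BT-16 and CHLA-266, and both were more frequent after treatment in both lines without passing the test.

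Among non-clustered protocadherins, an abundant gene rose together with 3 scarce ones. *PCDH1*, an adhesion molecule of airway epithelium and brain (chromosome 5, 141853090 to 141879246, minus strand), was counted 2752 and 9681 times in BT-16, then 1755 and 7472 times in CHLA-266. The conditions were well apart, and of all members *PCDH1* had the smallest adjusted *p* value (log2 fold change 2.19 ± 0.21, adjusted *p* = 0.000147, edgeR). *PCDH9*, a delta1 protocadherin of neurons, was the most abundant of this class in 3 libraries, with 51865 and 45238 counts in BT-16, then 34285 and 55389 in CHLA-266. It held 70.6% of the summed non-clustered level of untreated BT-16, whereas *PCDH1* led treated BT-16 with 49.8%. The *PCDH9* log2 fold change of 0.50 ± 0.22 did not pass the test (adjusted *p* = 0.107, edgeR), whereas it did with the block (adjusted *p* = 0.0189).

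The scarce members of this class came up from few counts. *PCDH7* had 4 and 152 counts in BT-16, then 0 and 98 in CHLA-266 (6.14 ± 1.12, adjusted *p* = 0.00417, edgeR). *PCDH12*, an endothelial protocadherin, was the exception, with 104 and 197, then 106 and 273 counts (1.42 ± 0.46, adjusted *p* = 0.0414, edgeR). Its edgeR call was lost without untreated BT-16 (adjusted *p* = 0.106), untreated CHLA-266 (0.0813), or treated CHLA-266 (0.241). The delta2 protocadherins, which recruit actin regulators, did not pass the test without the block. *PCDH8*, *PCDH10*, and *PCDH17* had 8 to 28 counts in untreated and 104 to 128 in treated BT-16, and 0 counts in untreated and 8 to 55 in treated CHLA-266. In the model with the block these 3 and *PCDH9* passed, which raised the class from 4 to 8 of 9. *PCDH18*, the fourth delta2 member, was counted 1388 and 565 times in BT-16, then 527 and 526 times in CHLA-266, and its log2 fold change of -0.53 (adjusted *p* = 0.295, edgeR) turned to 0.22 without untreated BT-16. Without untreated CHLA-266 it was -1.02 and past the threshold (adjusted *p* = 0.0415, edgeR).

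The clustered protocadherins lie on chromosome 5 between 140786136 and 141512977. Of the 52 tested, 43 rose (12 of 14 *PCDHA*, 11 of 16 *PCDHB*, and 20 of 22 *PCDHG*), and the other 9 passed in neither direction. The 43 had log2 fold changes between 0.82 (*PCDHA10*) and 4.63 (*PCDHB8*), and all 43 were also called in the model with the block. With single libraries left out, 31 to 42 clustered members passed. In 50 of the 52, both treated libraries lay above both untreated ones, and *PCDHB3* and *PCDHB5* were the exceptions.

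**Figure D3:**
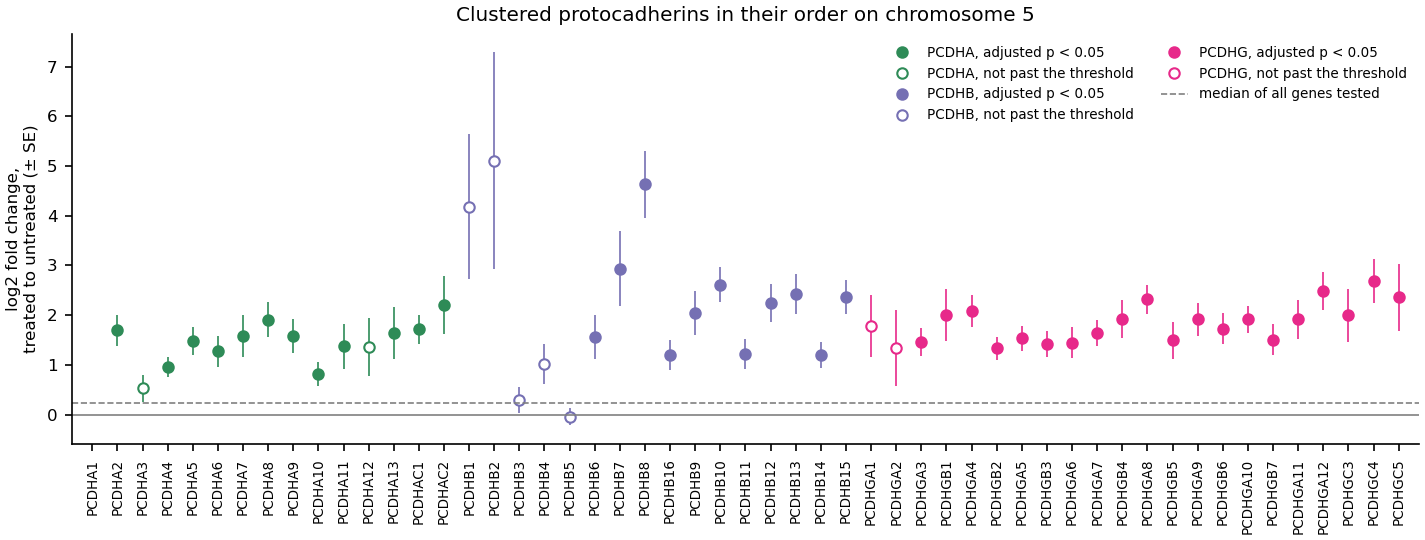
Log2 fold change of treated to untreated cells (points, with bars for the standard error, edgeR) of the clustered protocadherins in the order of their start on chromosome 5; filled points passed an adjusted *p* value of 0.05, open points did not, and *PCDHA1* was at 0 in every library. *PCDHA* and *PCDHG* members form an even row between about 0.5 and 2.7, whereas *PCDHB* members spread from -0.04 (*PCDHB5*, of either sign under other scalings) to 5.11 (*PCDHB2*, with 1 and 0 counts in untreated cells).

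In the alpha cluster, the gene with the most counts in untreated BT-16 changed least among those that rose. *PCDHA10* was counted 1844 and 1957 times in BT-16, then 1205 and 2494 times in CHLA-266 (log2 fold change 0.82 ± 0.24, adjusted *p* = 0.0281, edgeR). *PCDHA4* had 1561, 2116, 1302, and 2501 counts in the same order (0.95 ± 0.20, adjusted *p* = 0.00785, edgeR). *PCDHAC2*, one of the C-type genes that are regulated apart from the rest, had 66, 184, 28, and 172 (2.20 ± 0.58, adjusted *p* = 0.0201, edgeR), and *PCDHAC1*, the other C-type gene, had 519, 1021, 422, and 1537 (1.72). The conditions of these 4 genes did not overlap. *PCDHA3* had 694, 767, 480, and 647 counts and *PCDHA12* 47, 175, 83, and 114, and neither passed (adjusted *p* = 0.153 and 0.101, edgeR). The other 8 *PCDHA* genes that rose had log2 fold changes between 1.27 and 1.90. In tested *PCDHA* genes 43.4% to 78.6% of the exon bases belong to no other gene on the same strand, and reads in the shared constant exons cannot be assigned to 1 of them. How such reads were counted is not given in the sources used here, so that the members may not be independent of each other. *PCDHA1*, which shares the constant exons, was at 0 in every library.

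The beta cluster was uneven. *PCDHB5* was counted 7167 and 4964 times in BT-16, then 5137 and 4991 times in CHLA-266, which gave a log2 fold change of -0.04 ± 0.17 (adjusted *p* = 0.857, edgeR) and 0.31 with upper-quartile normalization. By counts over the whole exon length it was the most abundant clustered protocadherin in all libraries, whereas per base that no other gene shares *PCDHGB2* exceeded it in treated CHLA-266 (31.2 against 28.2 CPM per kilobase). Its level of 24.5 to 30.5 CPM per kilobase of exon differed little between libraries. *PCDHB3*, with 1659, 1188, 1085, and 1587 counts, likewise overlapped between the conditions (0.29 ± 0.26, adjusted *p* = 0.388, edgeR).

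Other *PCDHB* genes rose several-fold around them. *PCDHB8* was counted 10 and 158 times in BT-16, then 6 and 177 times in CHLA-266 (log2 fold change 4.63 ± 0.67, adjusted *p* = 0.00141, edgeR). *PCDHB10* had 259 and 977, then 123 and 957 counts (2.62 ± 0.36, adjusted *p* = 0.00102, edgeR). *PCDHB15* had 277 and 964, then 145 and 843 (2.37 ± 0.34, adjusted *p* = 0.00125, edgeR). In all 3 the treated libraries of both lines reached like counts, although untreated BT-16 had more than untreated CHLA-266. *PCDHB14*, the second most abundant member, had 2581, 3499, 1319, and 3840 counts (1.19 ± 0.26, adjusted *p* = 0.00918, edgeR). The other 7 that rose had log2 fold changes between 1.20 and 2.94, and *PCDHB4*, at 1.01, did not pass (adjusted *p* = 0.0780, edgeR). It passed in 6 of 9 other settings that kept all libraries, among them the block (adjusted *p* = 0.0349, edgeR). *PCDHB1* and *PCDHB2* had 0 to 2 counts in untreated and 8 to 42 in treated libraries, and did not pass the test (adjusted *p* = 0.0526 and 0.0980, edgeR).

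With the other genes rising around it, the share of *PCDHB5* in the summed *PCDHB* level went from 48.8% to 30.8% in BT-16 and from 55.5% to 26.3% in CHLA-266. The scarcer a *PCDHB* gene was in untreated CHLA-266, the larger was its ratio in BT-16, with a Pearson's r of -0.931 and a Spearman's rho of -0.90 over 16 genes. With the lines exchanged it was -0.847 and -0.755. Over 22 *PCDHG* genes the same relation was -0.582 and -0.579, and -0.164 and -0.221 with the lines exchanged. These correlations run across genes of 3 libraries, whose depth the points share, and genes at few counts can show large ratios more easily, so they are given as a description.

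**Figure D4:**
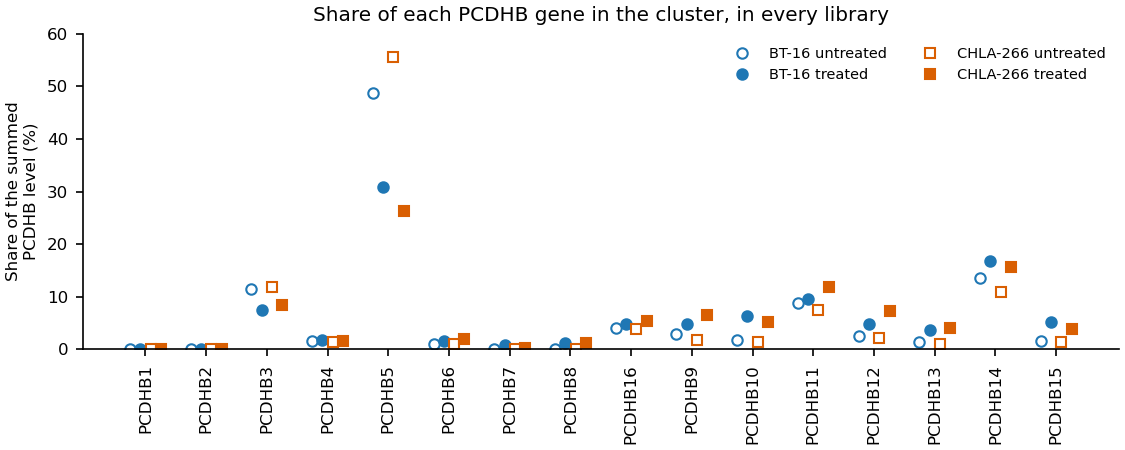
Share of each *PCDHB* gene in the summed level of the cluster (percent, with levels as CPM per kilobase of exon) in the 4 libraries, in the order of the genes on chromosome 5. *PCDHB5* holds 48.8% and 55.5% before and 30.8% and 26.3% after treatment, while its own level stayed between 24.5 and 30.5.

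The gamma cluster rose most evenly. *PCDHGA8* had 402 and 1206 counts in BT-16, then 270 and 1561 in CHLA-266, and the smallest adjusted *p* value of all clustered members (log2 fold change 2.32 ± 0.29, adjusted *p* = 0.000631, edgeR). *PCDHGA4* (512, 1146, 304, and 1710 counts), *PCDHGA7* (574, 1147, 449, and 1510), *PCDHGA10* (447, 1075, 358, and 1449), and *PCDHGA12* (227, 633, 157, and 1138) had log2 fold changes of 2.09, 1.65, 1.92, and 2.49. In each of these 5 genes, both treated libraries lay above both untreated ones. *PCDHGB2* led the cluster in every library with 2055, 3013, 1453, and 4268 counts (1.33 ± 0.24, adjusted *p* = 0.00408, edgeR), and its share of the summed *PCDHG* level went from 21.6% to 17.4% and from 20.8% to 16.8%. The C-type genes *PCDHGC3*, *PCDHGC4*, and *PCDHGC5* rose as well, with log2 fold changes of up to 2.69 (*PCDHGC4*). The other 11 that rose had log2 fold changes of 1.42 or more. The remaining *PCDHGA1* and *PCDHGA2* had 24 to 50 counts in untreated and 58 to 132 in treated libraries and did not pass (adjusted *p* = 0.0534 and 0.199, edgeR). In *PCDHG* genes 35.6% to 72.5% of the exon bases belong to no other gene on the same strand. Levels per base not shared gave a summed *PCDHG* level of 50.5 and 110 in BT-16, then 41.1 and 179 in CHLA-266.

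The repertoire of clustered genes was alike in the 2 lines. Over 52 genes, levels in untreated BT-16 and CHLA-266 had a Pearson's r of 0.976 on the log2 scale and a Spearman's rho of 0.949, and levels in the treated cells had 0.965 and 0.963. Over all 17985 genes with a length, r was 0.976 and rho 0.971 between the untreated libraries, and 0.935 and 0.957 between the treated ones. The size of the change was not alike. The ratio of treated to untreated counts was larger in CHLA-266 than in BT-16 for 49 of 52 clustered members (94.2%), against 52.8% of all genes tested, with a median difference of 0.92 on the log2 scale against 0.04. With library totals in place of TMM it was larger in 92.3% against 43.7%. It was larger in 8 of 9 non-clustered protocadherins (median difference 0.88), 4 of 5 other cadherins, and 10 of 18 classical cadherins. The median ratio was 2.36-fold (BT-16) and 3.43-fold (CHLA-266) for *PCDHA*, 2.36-fold and 7.22-fold for *PCDHB*, and 2.32-fold and 4.58-fold for *PCDHG*. This comparison was chosen after the values were seen. With 1 library per line and condition, this difference between the lines could not be tested.

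To place the low counts, levels were set beside those of the olfactory receptor genes of the same library, whose 95th percentile went from 0.0595 to 0.455 in BT-16 and from 0.0618 to 0.409 in CHLA-266. Of the olfactory receptor genes tested, 27 of 336 were called higher, with a median log2 fold change of 4.16. Of the 56 members that rose, 45 lay above this percentile in both treated libraries. These were 41 of the 43 clustered protocadherins, 2 of the 4 non-clustered ones (*PCDH1* and *PCDH12*), *CDH23*, and 1 of the 8 classical cadherins (*CDH22*). *CDH1*, *CDH3*, *CDH5*, *CDH6*, *CDH7*, *CDH15*, *CDH19*, *PCDH7*, and *PCDH15* did not exceed it in both treated libraries. The part of reads at silent genes in these increases was not tested.

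**Figure D5:**
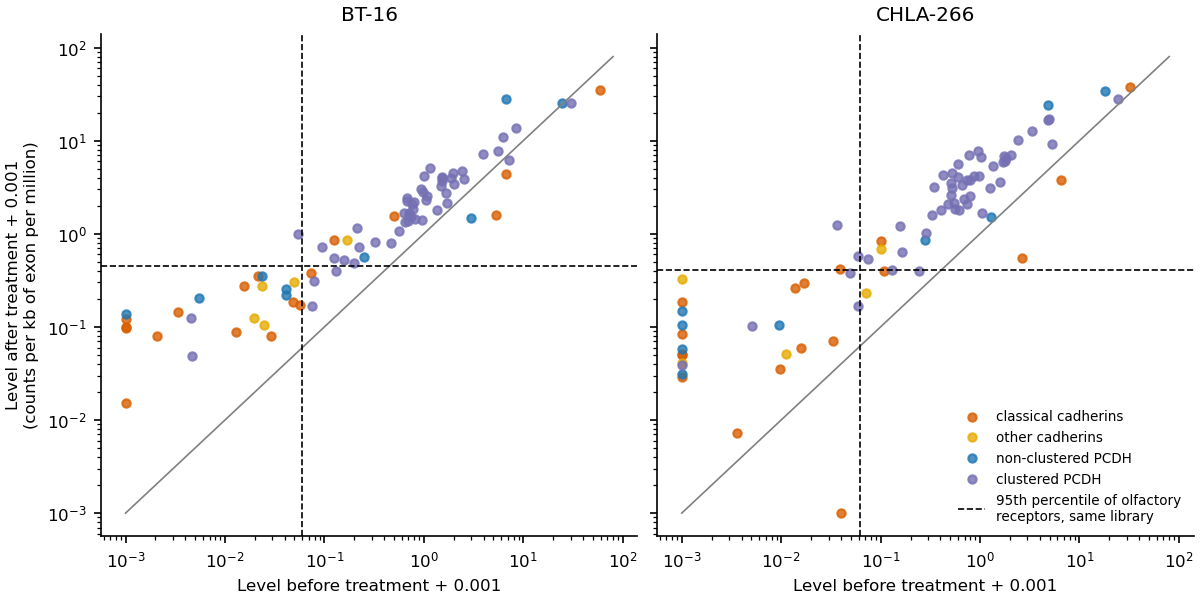
Level of each member after treatment (vertical axis) against its level before treatment (horizontal axis), as CPM per kilobase of exon plus a small constant on logarithmic axes, with the line of equal levels in gray and the 95th percentile of olfactory receptors of the same library as dashed lines. Clustered protocadherins mostly lie above both dashed lines and above the gray line, whereas most classical cadherins that rose end below the horizontal dashed line at 0.455 in BT-16 and 0.409 in CHLA-266.

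Between the lines, few members differed once the condition was in the model. *CDH24* was higher in BT-16 (log2 fold change 1.25, adjusted *p* = 0.00988, edgeR), as its counts above show in both conditions. *CDH10*, a type II cadherin of the brain, was higher in BT-16 as well, counted 126 and 326 times there, then 24 and 75 times in CHLA-266 (2.09, adjusted *p* = 0.0446, edgeR). Its change after treatment did not pass (log2 fold change 1.67, adjusted *p* = 0.150, edgeR). It passed in 2 of 9 other settings that kept all libraries, among them the block (adjusted *p* = 0.0133, edgeR). Both edgeR calls were lost when a minimum of 10 counts in each library was set (adjusted *p* = 0.0950 for both). No member was called higher in CHLA-266 with edgeR (4 at an unadjusted *p* value under 0.05) or with DESeq2. Over all genes, 1.46% were called higher in BT-16 and 0.836% in CHLA-266 (2.3% in all).

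Genes that act with cadherins did not move as 1 group. Of 14 catenins and adaptors, 5 rose and 2 fell. Over all genes, 16.1% were called higher and 19.1% lower, and the counts in each list of partners are read beside these shares. *CTNNB1*, which encodes beta-catenin, had 18184 and 8805 counts in BT-16, then 14076 and 9014 in CHLA-266 (log2 fold change -0.60, adjusted *p* = 0.0250, edgeR), and *PKP4* fell by 1.53 on the log2 scale. *CTNND1*, the p120 catenin that keeps cadherins at the membrane, rose by 0.99 (adjusted *p* = 0.0212, edgeR), and *PKP1* and *CTNNA3* rose from 13 or fewer counts. Of 7 desmosomal cadherins, *DSC1* alone was called higher, which is near the share of all genes. It had 40 and 30 counts after treatment of BT-16 and CHLA-266 and 0 before.

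Of 18 atypical and related cadherins, 9 rose and 3 fell, against 16.1% and 19.1% of all genes, so that the falls were near that share. *CLSTN2*, a calsyntenin, had 33 and 597, then 10 and 318 counts (log2 fold change 4.66, adjusted *p* = 0.000845, edgeR), and the planar polarity genes *FAT4* and *DCHS2* rose by 3.20 and 4.03. The planar polarity cadherin *CELSR2* had 4700 and 1147, then 3017 and 540 counts (-1.95, adjusted *p* = 0.00215, edgeR), and *CELSR3* and *CLSTN1* fell by 0.99 and 0.55. Among enzymes that cleave cadherins, *PSEN2* and *MMP9* rose and *ADAM15* fell.

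Of 9 repressors of E-cadherin transcription, 3 rose and 1 fell, against 16.1% and 19.1% of all genes. *SNAI2* was at 0 in both untreated libraries and had 218 and 40 counts in treated BT-16 and CHLA-266, *ZEB2* had 26 and 192, then 6 and 164 counts, and *TCF4* had 7 and 174, then 28 and 112. The fall was that of *TCF3* (log2 fold change -0.88, adjusted *p* = 0.00728, edgeR). The summed level of the 9 repressors went from 344 to 263 and from 345 to 326 CPM. *TCF3* had the most counts in untreated cells (16038 and 6061, then 12753 and 6993), so that the sum does not describe the others. *ZEB1* and *TWIST2*, named after their values were seen, did not pass without the block and passed with it. There *ZEB1* (6936 and 8049, then 7929 and 9417 counts) was higher and *TWIST2* (383 and 181, then 380 and 44) was lower.

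Of 14 regulators of the protocadherin clusters in the table, 10 fell and the other 4 did not pass the test without the block. Over all genes, 19.1% were called lower. *DNMT1*, the maintenance DNA methyltransferase, had 35802 and 6644 counts in BT-16, then 33356 and 7504 in CHLA-266 (log2 fold change -2.03, adjusted *p* = 0.000109, edgeR). *RAD21*, a cohesin subunit, had 36308 and 9565, then 34912 and 10234 (-1.59, adjusted *p* = 0.000326, edgeR), and *SMCHD1*, which keeps the clusters silent, had 17687 and 5732, then 19201 and 5972 (-1.41, adjusted *p* = 0.000709, edgeR). The conditions of all 3 were far apart. *CTCF* itself, named after its value was seen, fell by 0.66 on the log2 scale (adjusted *p* = 0.0144, edgeR). Many of these genes are also expressed with the cell cycle, and whether their fall bears on the rise of the clusters was not tested.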

How the data were processed

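RNA from untreated and treated BT-16 and CHLA-266 cells was sequenced in bulk, with 1 library per line and condition and between 49849257 and 75087193 counts per library. According to the methods, the authors demultiplexed the reads (bcl2fastq version 2.20, per the labels), trimmed adapters with Skewer, aligned to hg38 with STAR, counted reads per gene, added HUGO symbols with biomaRt, and removed genes that were counted repeatedly and genes of the sex chromosomes, so that protocadherins of those chromosomes were not analysed here. The strand setting and the annotation of the counting are not given in the sources used here. The deposited count table holds these raw values as estimated counts, and 5 fractional values (2 genes) were rounded to the nearest whole number. The deposited log2 values are the variance-stabilizing transformation that the authors made with DESeq2 for the 17553 genes whose counts summed to 10 or more. They were used in limma as an alternative.

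Libraries were grouped by condition per the labels. All genes with counts in at least 1 library (18066 of 18449) were tested with the quasi-likelihood test of edgeR 4.0.16 in R 4.3.3, with TMM normalization, condition as the only term, and Benjamini-Hochberg adjustment with a threshold of 0.05. The lines were compared with condition as a second term. Same-numbered libraries come from the same cell line, which pairs them (correlation of deviations from the condition means 0.257 over 12620 genes), and the model with the line as a block was an alternative. The others were DESeq2 1.42.0 with and without the block, size factors of DESeq2, upper-quartile normalization, library totals, a minimum of 10 counts in every library, the edgeR filter for low counts, limma 3.58.1, and leaving out each library. The tests were checked on simulated counts. Where each line had a mean of its own, the test without the line recovered none of the genes drawn with a change, while the model with the block recovered most, so that a gene that did not pass is not shown to be unchanged. Levels are CPM with TMM-scaled library sizes per kilobase of the union of exons (GENCODE, hg38), and the alternatives there were exon bases that no other gene on the strand shares and library totals. The floor was 3 counts per library. Ratios within a line used a prior count of 0.5 and exact 95% counting intervals, also with counts halved and, chosen after seeing the data, with library totals. Intervals and the floor cover counting error only. Promoters were searched with Python 3.11.15.

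The members, gene lists, and tests were chosen with earlier results of these data known. Members were named by a rule: the type I cadherins, the 8 with the smallest adjusted *p* value per class and direction among those called, the 3 with the highest mean level per class, and the 5 with the smallest adjusted *p* value per direction between the lines, with at most 3 genes per direction from the lists of partners. *CDH8*, *CDH9*, *CDH11*, *CDH12*, *CDH13*, *CDH17*, *CDH18*, *CDH20*, *PCDH8*, *PCDH10*, *PCDH17*, *PCDH20*, all *PCDHA* genes, *PCDHB1* to *PCDHB4*, *PCDHGA1*, *PCDHGA2*, and the *PCDHGC* genes were named after their values were seen. Some genes of the marker and partner lists are not reported here.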

Additional observations from a re-analysis of the deposited data

Results flagged for a closer look

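In several abundant members the ratio of treated to untreated counts pointed in opposite directions in the 2 lines. *CDH2* (N-cadherin) had a log2 ratio of -0.75 in BT-16 and 0.21 in CHLA-266. *PCDH18*, a delta2 protocadherin, had -1.04 in BT-16 and 0.24 in CHLA-266. *PCDHB5*, the most abundant clustered protocadherin, had -0.27 in BT-16 and 0.20 in CHLA-266. *PCDHB3*, of the same cluster, had -0.23 in BT-16 and 0.79 in CHLA-266. The exact counting intervals of all these ratios excluded 0, but that of *PCDH18* in CHLA-266 no longer did with the counts halved. With library totals in place of TMM, the ratio of *PCDHB5* in BT-16 was 0.014, so that both lines pointed the same way. The ratio of *PCDHB3* in BT-16 likewise turned positive. *CDH2* (-0.46 and 0.37) and *PCDH18* (-0.75 and 0.41) kept opposite signs. With 1 library per line and condition, the difference between the lines was not tested.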

How the results depend on the processing

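Over the alternatives that kept all libraries, 50 to 64 members were called higher. The cell line as a block gave 60 higher and 2 lower. It changed the count by over 1.5 times for other cadherins (2 higher in place of 1), non-clustered protocadherins (8 in place of 4), E-cadherin repressors (2 lower in place of 1), and cluster regulators (1 higher in place of 0). DESeq2 called 3 other cadherins higher with and without the block, and 8 non-clustered protocadherins with it; limma called 3 and both upper-quartile normalization and library totals called 2 other cadherins higher. Members called lower, all of them classical cadherins, numbered 1 with upper-quartile normalization, 1 with library totals, and 0 with at least 10 counts in every library, where classical cadherins higher numbered 2. Of the members higher in BT-16 than in CHLA-266, DESeq2 called 1, and 0 were called without condition in the model, with at least 10 counts, with the edgeR filter, or with limma.

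Without single libraries, 41 to 55 members were higher and 0 to 3 lower. Classical cadherins higher numbered 5 to 7 and lower 0 to 2, other cadherins higher 1 to 2, non-clustered ones higher 3 to 6 and lower 0 to 1, and clustered ones higher 31 to 42. Of the 56 members, 48 were still called without untreated BT-16, 53 without treated BT-16, 39 without untreated CHLA-266, and 42 without treated CHLA-266, and no called member changed sign there. The line contrast has no residual degrees of freedom with a library left out and was not run.

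The log2 fold change of *CDH2* turned to 0.015 with upper-quartile normalization (-0.71 to 0.16 without single libraries). That of *PCDHB5* turned to 0.026 with DESeq2 and with its size factors in edgeR, 0.031 with DESeq2 and the block, 0.030 with limma, 0.31 with upper-quartile normalization, 0.18 with library totals, and 0.14 with at least 10 counts (-0.19 to 0.12 without single libraries). That of *PCDH18* was -1.02 to 0.22 without single libraries. The ratio of *PCDHB5* within BT-16 turned to 0.014 with library totals, an alternative chosen after seeing the data. The cause was not tested. Members under 3 counts in untreated cells have folds that the depth does not fix.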
